A study of Mus musculus with 50 samples.

Results

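The genes of the mouse X chromosome whose start lies from 60 Mb to below 80 Mb (build mm9) were followed across the RNA libraries of a study of Xist. All genes that the count tables place there were taken, except ribosomal protein genes and Flna, G6pdx, Gpr50 and Dusp9, which left 163 of 24391 genes, called members here. A gene's position is that of the exon the tables list for it, and each gene had 3 counts per library, all reads, reads of the 129 allele and reads of the CAST allele. The first member is Gm6760 (start 61404581) and the last 4930595M18Rik (start 78664914), and the nearest genes outside are 1700019B21Rik (59763714) and Dmd (80194209). Of the 163 members 118 had a read in any of the 8 libraries, and 31 are microRNA genes, 25 of them with no read in this poly(A) RNA. The level of all reads was tested for 78 members, and 57 had enough allelic reads, 20 per library on average, for a comparison of alleles. The other 85 and 106 members were too low for these tests, so the counts below are not counts over all members.

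Mouse embryonic stem (ES) cells whose parents were of the strains 129/Sv/Jae and CAST/Ei were freed of feeder cells, kept for 4 days as embryoid bodies and plated for 10 more days. They were RepB-/-, RepB+/- or wild type (WT), with 2 libraries each. In RepB cells Xist lacks its tandem Repeat B, on both alleles in RepB-/- and on 1 in RepB+/-, where the labels do not say which. Mouse embryonic fibroblasts (MEF) of the same strains gave 1 RepB library, whose labels do not say on how many alleles the repeat was lost, and 1 WT library. The labels do not say whether the libraries of a genotype came from separate cultures or clones, so p-values measure only the spread between libraries, which may be technical. In each fit this spread was estimated by sharing information over genes and genotypes. A gene's p-value therefore does not rest on the spread of its own libraries alone.

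In female mammals the long non-coding RNA Xist coats the X chromosome that transcribes it and starts the silencing of its genes. Repeat B of Xist recruits proteins that bring Polycomb complexes, which modify histones of the silenced chromosome. Where the parents are of different strains, sequence variants tell which X chromosome a read came from. Genes that stay active on the silenced chromosome are said to escape inactivation. The stretch from 60 to 80 Mb holds housekeeping genes beside germ cell genes in many near-identical copies, and includes the mouse counterpart of the human haemophilia gene F8.

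Total counts ranged from 8000722 to 28045645 per ES library, RepB+/- replicate 2 being the shallowest, and were 18631736 in MEF RepB and 12126941 in MEF WT. Reads assigned to an allele made 26.7% to 27.99% of each library. Members held 0.495% and 0.486% of all counts in RepB-/-, 0.509% and 0.433% in RepB+/- and 0.362% and 0.343% in WT. Xist stood at 828 and 1149 CPM (counts scaled to a common library size) in RepB-/-, 917 and 809 in RepB+/- and 910 and 902 in WT, and most of its allelic reads came from 129 in every ES library. Its 129 share was 89.2% and 87.2% in RepB-/-, 97.8% and 97.2% in RepB+/- and 98.9% and 98.6% in WT. CAST reads of Xist rose by 3.34 (SE 0.20, adjusted p = 1.07e-55) on the log2 scale in RepB-/- cells and by 0.80 (SE 0.22, adjusted p = 0.0193) in RepB+/- cells, each against WT in edgeR's test. The log2 ratio of 129 to CAST reads of Xist also differed between RepB-/- and RepB+/-, by -2.45 (SE 0.17, adjusted p = 1.44e-40). The part of these CAST reads in the results below was not tested. The whole-gene count of Xist cannot show whether a repeat inside was deleted. Markers of other cell types were read from lists of 6 genes each, none at 0 in an ES library. Their summed CPM in the 4 RepB libraries and in the 2 WT libraries was 302 to 466 and 115 to 142 for pluripotency, 547 to 765 and 294 to 321 for endoderm, and 182 to 243 and 465 to 510 for cardiac muscle. It was 161 to 202 and 118 to 122 for neural genes and 139 to 193 and 111 to 114 for blood, while fibroblast genes overlapped at 16259 to 31209 and 19928 to 25237. In some lists the genes did not all move with the sum. Most of the neural sum was Nes, at 122 to 159 CPM in RepB and 72.0 to 75.8 in WT, whereas Tubb3 had 16.7 to 23.4 in RepB and 28.8 to 32.8 in WT, Pax6 0.258 to 0.702 in RepB and 2.06 to 2.20 in WT, and Dcx 0.129 to 0.183 in RepB and 0.339 to 0.464 in WT. Sox17 and Foxa2 of the endoderm list, Nppa of the cardiac list and Hbb-bh1 and Gata1 of the blood list overlapped between RepB and WT. Most of the fibroblast sum was collagen, and Col1a1, Col1a2, Col3a1 and Pdgfrb overlapped. Dcn of that list was higher, at 327 to 394 CPM in RepB and 172 to 217 in WT, as was Thy1, at 4.16 to 6.81 and 1.65 to 2.88. The part of these cell types in the results below was not tested, and in bulk RNA fewer cells of a type and less RNA per cell cannot be told apart. In MEF the fibroblast genes summed to 32652 CPM in RepB, with 1 gene at 0, and 38676 in WT, and 4 of the 6 pluripotency genes were at 0 in both.

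Promoters of the most deeply read members are printed here as examples and may not stand for those of the other members. The RefSeq promoter table (build GRCm38.p6, from 250 bases before a start to 50 after it) held 129 promoters of 111 of the 163 members. Members tested for all reads had a median of 16 CpG pairs per promoter and untested members 3, beside 19 for all genes tested and 7 for all promoters of the table. Of 5 members with at least 1000 allelic reads per library on average, 4 have no listed start of another gene within 300 bases of the printed stretch. The 250 bases before their starts are given 5′ to 3′ in gene orientation, with CpG in capitals, from most to fewest CpG. They are Bcap31 (chrX:73716205-73716454, minus strand, 22 CpG), Hcfc1 (chrX:73966358-73966607, minus, 19 CpG), Bgn (chrX:73483351-73483600, plus, 7 CpG) and Pls3 (chrX:75875171-75875420, minus, 5 CpG, 1 of 2 overlapping listed starts of this gene).
Bcap31: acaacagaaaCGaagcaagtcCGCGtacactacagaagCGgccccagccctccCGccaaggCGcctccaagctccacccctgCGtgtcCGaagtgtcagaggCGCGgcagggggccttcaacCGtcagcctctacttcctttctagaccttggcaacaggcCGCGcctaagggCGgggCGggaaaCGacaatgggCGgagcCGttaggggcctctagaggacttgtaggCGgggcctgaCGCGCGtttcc
Hcfc1: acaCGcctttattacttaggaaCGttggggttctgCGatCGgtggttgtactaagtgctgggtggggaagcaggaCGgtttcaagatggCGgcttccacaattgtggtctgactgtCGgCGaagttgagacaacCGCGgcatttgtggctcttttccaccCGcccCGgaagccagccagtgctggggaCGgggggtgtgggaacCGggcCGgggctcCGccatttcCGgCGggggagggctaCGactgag
Bgn: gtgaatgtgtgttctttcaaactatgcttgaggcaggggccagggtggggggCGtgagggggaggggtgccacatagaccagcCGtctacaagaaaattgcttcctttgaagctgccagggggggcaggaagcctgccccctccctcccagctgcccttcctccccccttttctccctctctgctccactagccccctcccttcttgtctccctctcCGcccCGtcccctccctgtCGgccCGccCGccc
Pls3: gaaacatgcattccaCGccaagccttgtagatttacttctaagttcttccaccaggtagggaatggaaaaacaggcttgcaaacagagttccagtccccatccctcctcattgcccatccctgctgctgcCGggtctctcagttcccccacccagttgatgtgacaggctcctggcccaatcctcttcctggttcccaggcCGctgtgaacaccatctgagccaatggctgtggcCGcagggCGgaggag
Of these 4 only Hcfc1 holds the letters ATGGCGG, a core of the motif of the transcription factor YY1, on either strand. They occur in 15.7% of the 83 promoters of tested members, against 7.00% of the promoters of all genes tested and 4.05% of all promoters. The 13 member promoters with these letters lie at 9 places, since Cmc4 and Mtcp1, Idh3g and Ssr4, and Fam3a and Ikbkg share or overlap windows and Irak1 has 2 overlapping starts. A match of letters is a description and shows no binding.

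In WT ES cells most allelic reads of most members came from CAST. In both RepB genotypes the 129 chromosome gave over 35% of the allelic reads of the median member. The median share of 129 reads over the 57 members was 40.0% ± 0 in RepB-/-, 37.9% ± 1.92 in RepB+/- and 6.13% ± 0.863 in WT (SD over libraries, n = 2 each). The 314 other X-linked genes measured the same way had medians of 33.4% ± 1.48 in RepB-/-, 32.5% ± 3.53 in RepB+/- and 5.85% ± 0.873 in WT. On chromosome 13, which carries both strains in these cells, 418 genes had 50.0% ± 0 in RepB-/-, 50.3% ± 0.488 in RepB+/- and 50.4% ± 0.536 in WT. Both RepB-/- libraries lay above both WT libraries for 51 of 57 members, and both RepB+/- libraries for 51, against 14.7% of all genes in each comparison. A share over 20% in both libraries was seen for 48 members in RepB-/-, 43 in RepB+/- and 7 in WT. How many other genes passed 20% was not counted, so these numbers are not set against the rest of the X chromosome.

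**Figure D1:**
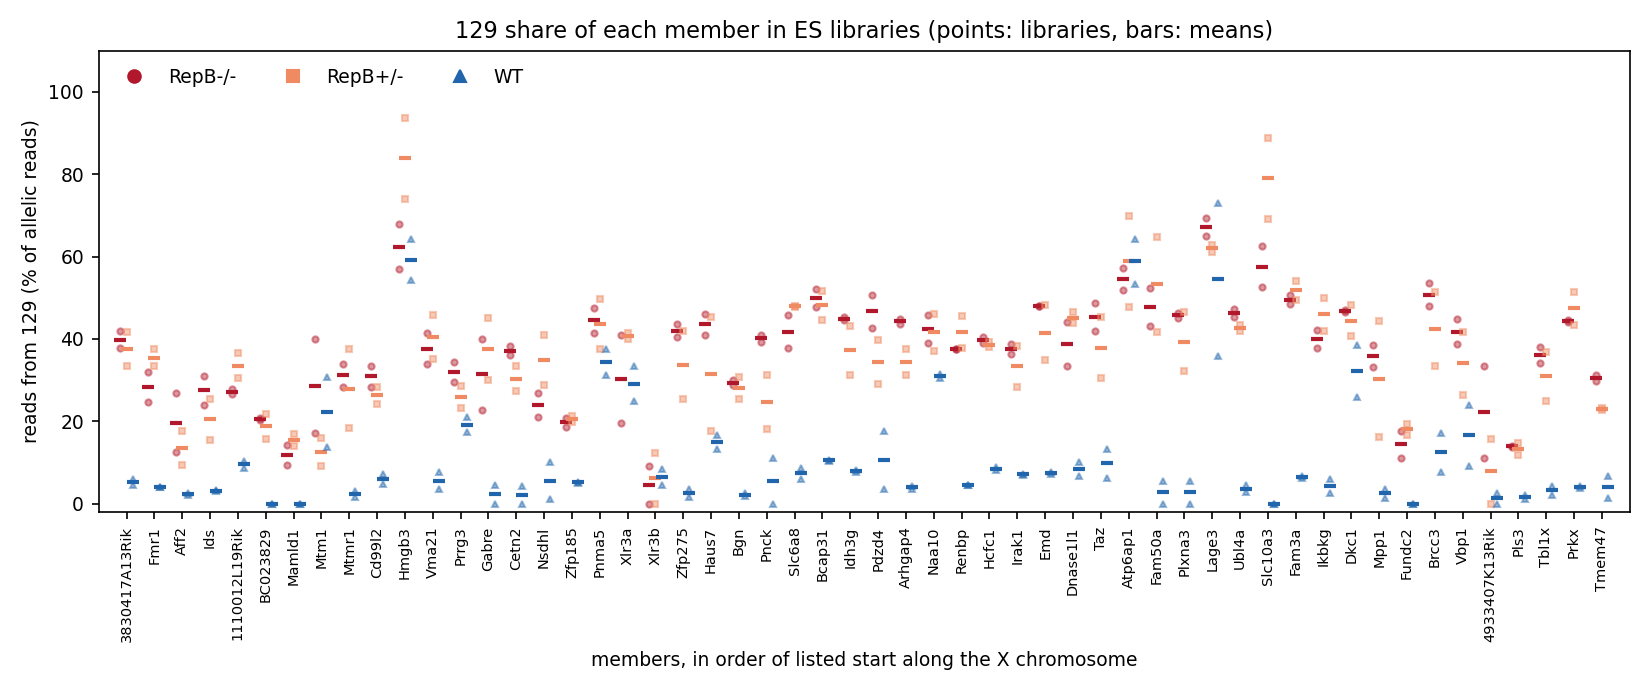
Share of 129 reads (vertical axis, percent of allelic reads) of 54 of the 57 members in order of start (horizontal axis), in RepB-/-, RepB+/- and WT ES libraries, with points for libraries and bars for means of 2. WT shares lie under 10% for most members while RepB shares lie mostly between 20% and 50%, and Hmgb3, Atp6ap1 and Lage3 are high in WT too.

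The ratio of 129 to CAST reads was tested per gene with edgeR's quasi-likelihood test, with the library as a block and Benjamini-Hochberg adjustment over 11597 genes at 0.05. In RepB-/- it rose in 39 of 57 members and fell in 0, where 2.24% of all genes rose and 0.19% fell. In RepB+/- it rose in 34 and fell in 0, against 2.1% and 0.293% of all genes, and 34 members rose in both. DESeq2's Wald test called 25 and 23 higher and 0 lower, and at an unadjusted p under 0.05 edgeR had 49 and 47 higher and 0 lower. Of all 11597 genes 664 passed this unadjusted limit in RepB-/- and 721 in RepB+/-, in either direction. The median log2 change of this ratio over members was 3.17 for RepB-/- and 3.14 for RepB+/-, or 3.06 and 2.99 with the 4 members that had no 129 read in WT set at a lower bound from 3 reads over the group. Of the 314 other X-linked genes 61.1% rose in RepB-/- and 59.2% in RepB+/-.

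Which chromosome changed was read from the counts of each allele, scaled by the library sizes of all reads and tested with edgeR. Reads of 129 rose in 46 of 57 members in RepB-/- (5.26% of all genes) and in 47 in RepB+/- (5.66%), with 45 in both. They fell in 0 members in both, against 2.38% and 3.35% of all genes, and in 0 members also at an unadjusted p under 0.05. Their median log2 change was 3.01 and 2.98, or 2.87 and 2.88 with the same 4 members at their bounds. Reads of CAST rose in 0 members and fell in 3 in RepB-/- (0.793% and 1.14% of all genes), and rose in 3 and fell in 3 in RepB+/- (1.02% and 1.18%). At an unadjusted p under 0.05 edgeR had 5 higher and 10 lower of the 57 members in RepB-/- and 6 higher and 9 lower in RepB+/-. Of all 11597 genes 892 passed this limit in RepB-/- and 1100 in RepB+/-, in either direction. The median log2 change of CAST reads was -0.08 and -0.10. Among 314 other X-linked genes 129 reads rose in 69.4% in RepB-/- and 73.2% in RepB+/-, with median log2 changes of 2.62 and 2.68. Their CAST reads rose in 2.23% and 4.46% and fell in 9.55% and 7.01%, with medians of -0.16 and -0.18. Summed over the 57 members, 129 reads made 304 ± 8.31 CPM in RepB-/-, 285 ± 30.5 in RepB+/- and 48.1 ± 0.935 in WT, and CAST reads 514 ± 2.40 in RepB-/-, 521 ± 12.2 in RepB+/- and 567 ± 14.2 in WT (SD, n = 2 each). For 40 members 129 reads rose in both genotypes while CAST reads were called in neither. This was not counted over all genes, and CAST reads that were not called may still have changed. In RepB-/- the 0 and 3 CAST calls became 1 and 1 without WT replicate 1, 0 and 1 without RepB-/- replicate 1 and 0 and 5 without either RepB+/- library. In RepB+/- the 3 higher became 1 without WT replicate 1 and 0 without WT replicate 2, RepB+/- replicate 1 or either RepB-/- library.

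**Figure D2:**
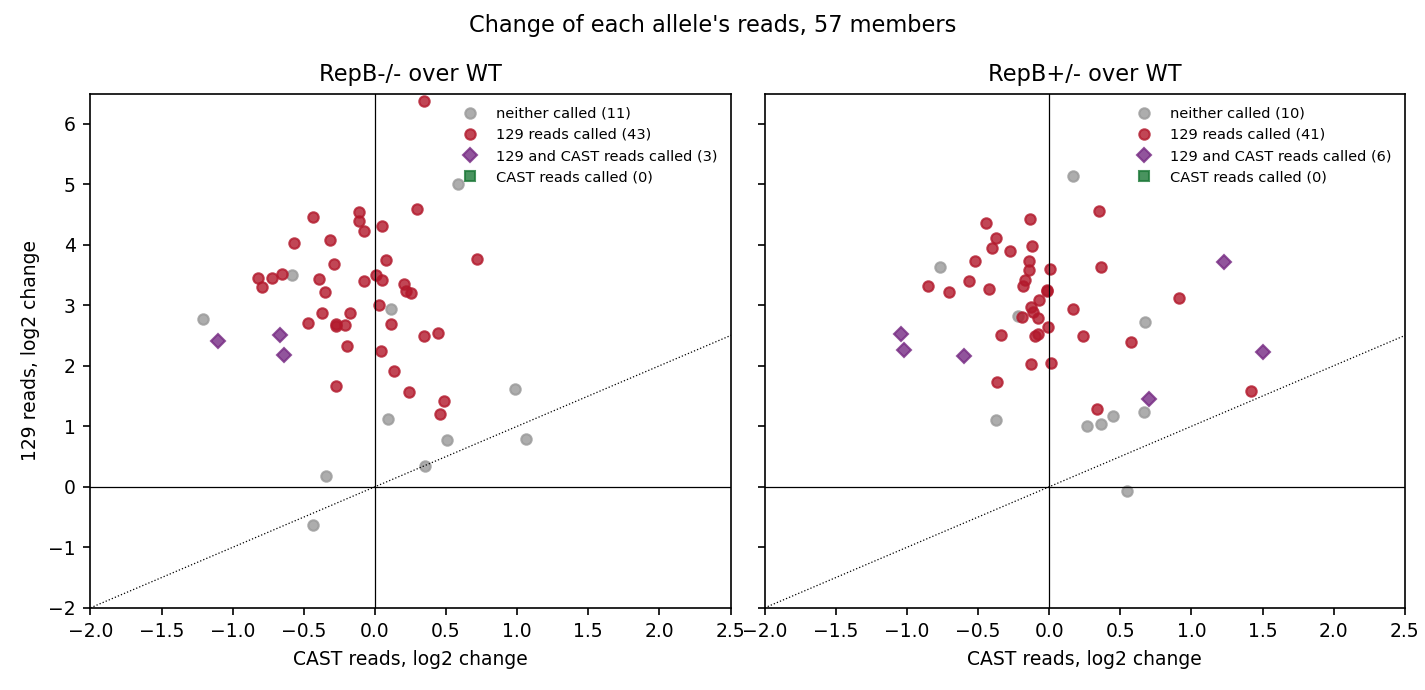
Log2 change of 129 reads (vertical axis) against that of CAST reads (horizontal axis) for 57 members, RepB-/- over WT on the left and RepB+/- over WT on the right, coloured by the alleles that edgeR called, with a dotted line where both changes are equal. Most points lie near 0 on the CAST axis and high on the 129 axis, with medians of 3.01 and 2.98 for 129 and -0.08 and -0.10 for CAST.

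Few members had called CAST reads. Hcfc1, whose product bridges transcription factors and histone-modifying enzymes, had fewer CAST reads and more 129 reads in RepB cells. Its CAST reads stood at 33.2 and 37.6 CPM in RepB-/-, 37.3 and 35.3 in RepB+/- and 58.0 and 52.2 in WT. Its 129 reads stood at 21.2 and 25.6 CPM in RepB-/-, 24.1 and 21.6 in RepB+/- and 5.16 and 5.09 in WT, so neither allele overlapped between RepB and WT. CAST reads fell by 0.64 (SE 0.15, adjusted p = 0.0021) on the log2 scale in RepB-/- cells and by 0.60 (SE 0.15, adjusted p = 0.00656) in RepB+/-, while all reads differed by -0.04 (SE 0.13, adjusted p = 0.883) and -0.08 (SE 0.13, adjusted p = 0.722). The creatine transporter gene Slc6a8 had CAST changes of -0.66 (adjusted p = 0.0456) and -1.04 (adjusted p = 0.000181), and 3830417A13Rik, a transcript given no role here, -1.10 (adjusted p = 1.04e-07) and -1.02 (adjusted p = 3.73e-06). In RepB+/- CAST reads of Pdzd4, Dkc1 and Pnma5 rose by log2 changes of 1.23, 0.70 and 1.50, with 0.72, 0.49 and 0.98 in RepB-/-, where they were not called.

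Of these CAST calls, those of 3830417A13Rik held without each library in turn, and the others did not. For Hcfc1 the adjusted p was past 0.05 without WT replicate 1 (0.141) or RepB-/- replicate 1 (0.239) in RepB-/- cells and without WT replicate 1 (0.193) or WT replicate 2 (0.0531) in RepB+/-. For Slc6a8 it was past 0.05 without WT replicate 1 (0.0517), WT replicate 2 (0.855), RepB-/- replicate 1 (0.0682) or RepB-/- replicate 2 (1) in RepB-/- cells and without WT replicate 2 (0.0587) in RepB+/-. The RepB+/- call of Pdzd4 was lost without WT replicate 1 (0.139), WT replicate 2 (0.327), RepB-/- replicate 1 (0.0896), RepB-/- replicate 2 (0.0802) or RepB+/- replicate 1 (0.25), that of Dkc1 without WT replicate 1 (0.0706), WT replicate 2 (0.586), RepB-/- replicate 1 (0.0579), RepB-/- replicate 2 (0.0602) or RepB+/- replicate 1 (0.587), and that of Pnma5 without WT replicate 1 (0.245), WT replicate 2 (0.0903), RepB-/- replicate 1 (0.0579), RepB-/- replicate 2 (0.0502) or RepB+/- replicate 1 (0.337).

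Counted over both alleles, more members rose than fell in RepB cells. With edgeR and adjustment over 15149 genes, 35 of 78 members rose and 3 fell in RepB-/-, where 7.27% of all genes rose and 5.49% fell. In RepB+/- 32 rose and 1 fell, against 9.12% and 6.84% of all genes, and 29 rose in both genotypes. The median log2 change was 0.46 in RepB-/- and 0.38 in RepB+/-, beside 0.01 and 0.02 over all genes tested, 0.34 and 0.38 over 478 other X-linked genes, and 0.06 and 0.09 over 550 genes of chromosome 13. Of the other X-linked genes 29.5% rose in RepB-/- and 32.4% in RepB+/-. Of the members whose 129 reads rose, 28 also rose in all reads in RepB-/- and 25 in RepB+/-. The counts depended on single libraries. The 35 and 3 became 20 and 0 without WT replicate 1, 20 and 1 without WT replicate 2, 21 and 1 without RepB-/- replicate 1 and 27 and 1 without RepB-/- replicate 2. The 32 and 1 became 17 and 0 without WT replicate 1, 14 and 1 without WT replicate 2 and 17 and 2 without RepB+/- replicate 1.

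**Figure D3:**
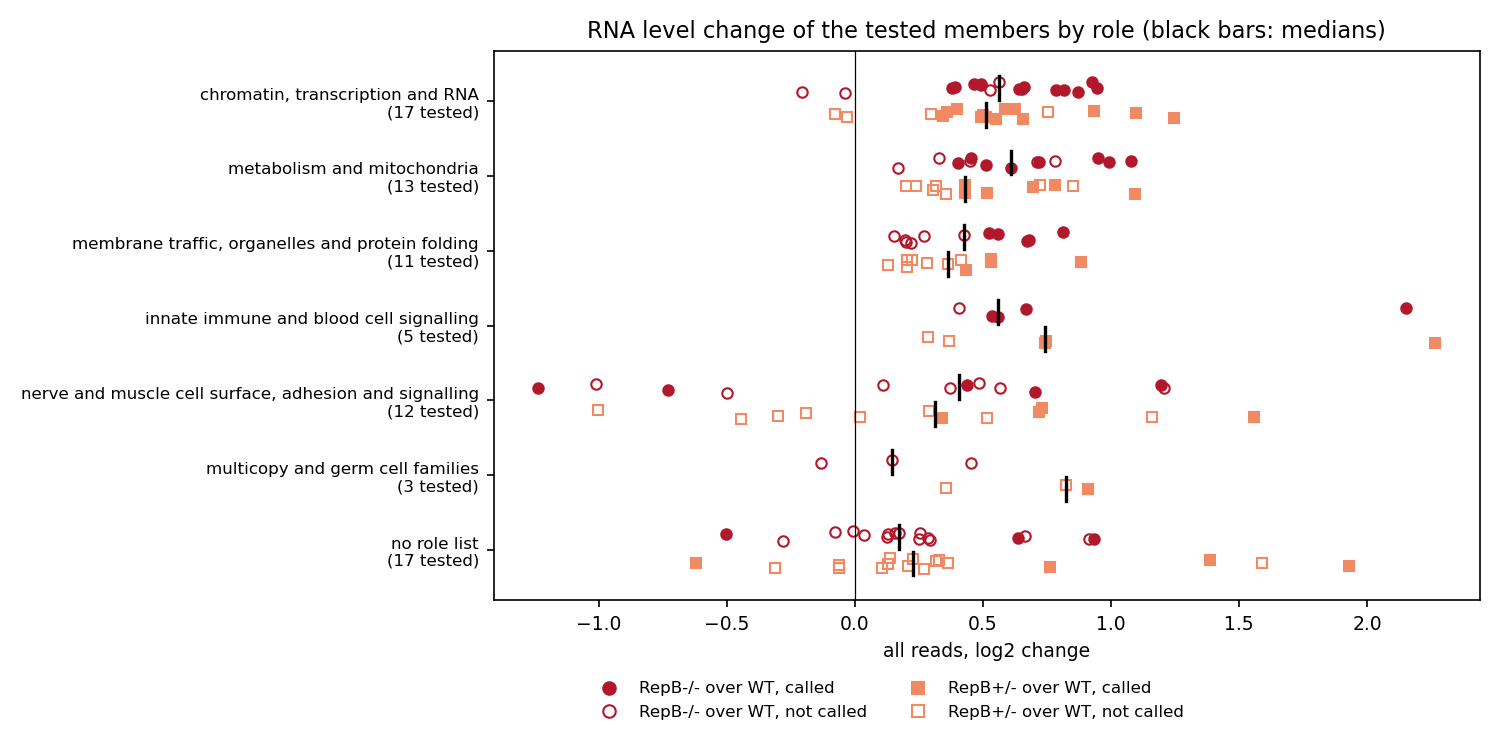
Log2 change of all reads (horizontal axis) of the 78 tested members by role list (vertical axis), RepB-/- over WT above RepB+/- over WT, filled where edgeR called the change and with black bars for medians. The medians of all 7 groups lie above 0, and Slitrk4, Gabre and 3830417A13Rik are the members that fell in RepB-/-.

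Genes of chromatin, transcription and RNA were the largest list, with 19 members, 17 of them tested for all reads and 16 for alleles. In all reads 13 rose in RepB-/- and 12 in RepB+/- and 0 fell, with median log2 changes of 0.56 and 0.51, and the ratio of 129 to CAST reads rose in 9 and 7. Hcfc1, above, had 129 shares of 38.9% and 40.5% in RepB-/-, 39.3% and 38.0% in RepB+/- and 8.17% and 8.88% in WT, and the log2 change of the ratio was 2.83 (SE 0.22, adjusted p = 1.46e-33) in RepB-/- cells and 2.77 (SE 0.23, adjusted p = 2.3e-30) in RepB+/-. Dkc1 encodes dyskerin, the enzyme of small nucleolar ribonucleoproteins that turns uridine into pseudouridine. All reads stood at 64.6 and 54.6 CPM in RepB-/-, 75.3 and 55.6 in RepB+/- and 32.7 and 29.1 in WT, rising by 0.95 (SE 0.14, adjusted p = 0.000487) in RepB-/- cells and 1.10 (SE 0.14, adjusted p = 0.000169) in RepB+/-. Brcc3, a deubiquitinase gene, had 20.5 and 20.5 CPM in RepB-/-, 21.4 and 21.5 in RepB+/- and 11.5 and 10.9 in WT and rose by 0.87 (SE 0.14, adjusted p = 0.00091) and 0.93 (SE 0.14, adjusted p = 0.000594). Zfp185 stands in this list by its name, although its product is a LIM-domain protein of the actin cytoskeleton. Its 129 share was 18.5% and 20.9% in RepB-/-, 21.2% and 19.9% in RepB+/- and 5.26% and 5.05% in WT, a rise of the ratio by 2.16 (SE 0.34, adjusted p = 2.96e-08) and 2.25 (SE 0.36, adjusted p = 2.53e-08), and all reads rose by 0.64 (SE 0.12, adjusted p = 0.00193) and 0.50 (SE 0.12, adjusted p = 0.0104). In all reads the call of Zfp185 in RepB+/- was lost without WT replicate 1 (0.0623), WT replicate 2 (0.0935) or RepB+/- replicate 1 (0.0936) (adjusted p in parentheses).

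Metabolic and mitochondrial genes had 13 members, all tested for all reads. Of them 8 rose in RepB-/- and 6 in RepB+/- and 0 fell, with median log2 changes of 0.61 and 0.43, and of 10 tested for alleles the ratio rose in 9 in each genotype. Idh3g, a subunit gene of the isocitrate dehydrogenase of the citric acid cycle, was among the most deeply read. Its 129 share was 44.6% and 45.3% in RepB-/-, 43.2% and 31.2% in RepB+/- and 8.05% and 7.78% in WT, and the ratio rose by 3.24 (SE 0.22, adjusted p = 5.59e-46) and 2.83 (SE 0.23, adjusted p = 1.12e-32). Fam3a, a gene of the FAM3 family, had near-equal reads of both alleles in RepB cells, with 129 shares of 48.5% and 50.6% in RepB-/-, 49.5% and 54.2% in RepB+/- and 6.25% and 6.76% in WT. Renbp, which encodes an epimerase of N-acetylglucosamine that binds renin, had 37.6% and 37.6% in RepB-/-, 37.7% and 45.5% in RepB+/- and 4.62% and 4.50% in WT. In all reads Slc10a3, an orphan of the bile acid carrier family, rose by 1.08 (SE 0.20, adjusted p = 0.00206) and 1.09 (SE 0.20, adjusted p = 0.00238), and Fundc2, a mitochondrial membrane protein gene, by 0.95 (SE 0.14, adjusted p = 0.000505) and 0.78 (SE 0.15, adjusted p = 0.0025). Slc6a8 had 166 and 180.0 CPM in RepB-/-, 168 and 186 in RepB+/- and 152 and 157 in WT, with log2 changes of 0.17 (SE 0.11, adjusted p = 0.336) and 0.20 (SE 0.11, adjusted p = 0.222). All reads of Idh3g rose by 0.40 (SE 0.12, adjusted p = 0.0355) in RepB-/-, a call lost without WT replicate 1 (0.186), WT replicate 2 (0.209) or RepB-/- replicate 1 (0.303). Fam3a rose by 0.51 (SE 0.12, adjusted p = 0.0101) and 0.43 (SE 0.12, adjusted p = 0.0259), lost without WT replicate 1 (0.158) or RepB-/- replicate 1 (0.0713) in RepB-/- cells and without WT replicate 1 (0.269) or RepB+/- replicate 1 (0.0746) in RepB+/-. Renbp rose by 0.61 (SE 0.12, adjusted p = 0.00317) and 0.51 (SE 0.12, adjusted p = 0.00918), lost without WT replicate 1 (0.0546) in RepB-/- cells and without WT replicate 1 (0.0989) or WT replicate 2 (0.0565) in RepB+/-.

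Genes of membrane traffic, organelles and protein folding had 11 members, all tested for all reads. Of them 5 rose in RepB-/- and 4 in RepB+/- and 0 fell, with median log2 changes of 0.42 and 0.36. Bcap31, an export chaperone of the endoplasmic reticulum whose CpG-rich promoter is printed above, had near-equal reads of both alleles in RepB cells. Its 129 share was 47.8% and 52.2% in RepB-/-, 51.7% and 44.5% in RepB+/- and 10.4% and 10.7% in WT, and the ratio rose by 3.08 (SE 0.24, adjusted p = 2.27e-35) and 3.01 (SE 0.24, adjusted p = 5.25e-32). Cd99l2, a cell surface glycoprotein gene, had 129 shares of 33.5% and 28.3% in RepB-/-, 28.3% and 24.2% in RepB+/- and 4.75% and 7.14% in WT. Ubl4a, part of the machinery that inserts tail-anchored membrane proteins, had 47.2% and 45.2% in RepB-/-, 43.4% and 41.9% in RepB+/- and 4.49% and 2.70% in WT. In all reads Ssr4, a subunit gene of the translocon-associated protein complex, had 86.7 and 84.8 CPM in RepB-/-, 80.8 and 73.5 in RepB+/- and 55.4 and 51.6 in WT and rose by 0.68 (SE 0.11, adjusted p = 0.000608) and 0.53 (SE 0.11, adjusted p = 0.00388). Bcap31 rose by 0.53 (SE 0.13, adjusted p = 0.0133) and 0.43 (SE 0.13, adjusted p = 0.0326). The RepB+/- call of Ssr4 was lost without WT replicate 2 (0.0667), and the calls of Bcap31 without WT replicate 2 (0.187) or RepB-/- replicate 1 (0.159) in RepB-/- cells and without WT replicate 1 (0.0774), WT replicate 2 (0.281) or RepB+/- replicate 1 (0.212) in RepB+/-.

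Of 5 innate immune and blood cell signalling genes, all tested, 4 rose in RepB-/- and 2 in RepB+/- in all reads, with median log2 changes of 0.56 and 0.74, and the ratio rose in all 3 tested for alleles. Irak1, the kinase of Toll-like and interleukin 1 receptors, had 101 and 118 CPM in RepB-/-, 113 and 119 in RepB+/- and 67.0 and 71.0 in WT and rose by 0.67 (SE 0.11, adjusted p = 0.000959) and 0.74 (SE 0.11, adjusted p = 0.000414). Its 129 share was 38.8% and 36.3% in RepB-/-, 38.4% and 28.3% in RepB+/- and 6.98% and 7.19% in WT. Ikbkg, the regulatory subunit of the IκB kinase, had 129 shares of 37.8% and 42.1% in RepB-/-, 41.9% and 50.0% in RepB+/- and 2.69% and 6.02% in WT. Mpp1, a scaffold protein of the red cell membrane, had 38.5% and 33.2% in RepB-/-, 44.3% and 16.1% in RepB+/- and 1.40% and 3.60% in WT. F8, the gene of coagulation factor VIII, had the largest called log2 change of all reads among members in both genotypes, 2.15 (SE 0.36, adjusted p = 0.0012) and 2.26 (SE 0.37, adjusted p = 0.000923), at a low level of 2.86 and 3.15 CPM in RepB-/-, 3.62 and 2.58 in RepB+/- and 0.723 and 0.593 in WT. The ratio rose by 4.47 (SE 0.61, adjusted p = 4.5e-11) for Mpp1 in RepB+/-, a call lost without RepB+/- replicate 1 (0.0762).

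Nerve and muscle cell surface, adhesion and signalling genes were mixed, with 16 members of which 12 were tested for all reads. In RepB-/- 3 rose and 2 fell, and in RepB+/- 4 rose and 0 fell, with median log2 changes of 0.41 and 0.31. Bgn, which encodes biglycan, a proteoglycan of the extracellular matrix, was the highest tested member per length of exon, at 226 ± 8.48 CPM per kb in RepB-/-, 231 ± 10.7 in RepB+/- and 139 ± 3.51 in WT (SD, n = 2 each). Its exon listed in the tables lies on the plus strand at chrX:70728974-70729101 (mm9). Its 129 reads stood at 39.3 and 40.3 CPM in RepB-/-, 39.9 and 37.7 in RepB+/- and 1.39 and 2.03 in WT, low in both WT libraries and alike in all RepB libraries. Its CAST reads stood at 92.0 and 100.0 CPM in RepB-/-, 89.5 and 110.1 in RepB+/- and 75.3 and 80.8 in WT. Reads of 129 rose by 4.59 (SE 0.19, adjusted p = 4.17e-12) and 4.55 (SE 0.20, adjusted p = 5.9e-12) on the log2 scale, CAST reads differed by 0.30 (SE 0.14, adjusted p = 0.472) and 0.35 (SE 0.14, adjusted p = 0.235), and all reads rose by 0.70 (SE 0.12, adjusted p = 0.00139) and 0.73 (SE 0.12, adjusted p = 0.000977). Pdzd4, a PDZ domain protein gene, had 49.2 and 43.0 CPM in RepB-/-, 62.4 and 55.7 in RepB+/- and 19.0 and 21.4 in WT and in all reads rose by 1.20 (SE 0.13, adjusted p = 2.97e-05) and 1.56 (SE 0.13, adjusted p = 3.83e-06). The semaphorin receptor gene Plxna3 had 129 shares of 46.3% and 45.1% in RepB-/-, 46.6% and 32.1% in RepB+/- and 5.52% and 0% in WT, the last standing for 0 of 104 reads, a share of up to 2.88%. Slitrk4, a synaptic adhesion gene, had 2.04 and 1.55 CPM in RepB-/-, 2.53 and 1.29 in RepB+/- and 5.21 and 3.14 in WT and fell by 1.24 (SE 0.33, adjusted p = 0.0232) in RepB-/-, with -1.01 (SE 0.35, adjusted p = 0.0596) in RepB+/-. Gabre, a GABA receptor subunit gene, had 4.83 and 6.49 CPM in RepB-/-, 7.06 and 9.95 in RepB+/- and 8.67 and 10.1 in WT and fell by 0.73 (SE 0.22, adjusted p = 0.0384) in RepB-/-, with -0.19 (SE 0.22, adjusted p = 0.596) in RepB+/-. The call of Slitrk4 was lost without WT replicate 1 (0.3), RepB-/- replicate 1 (0.0824) or RepB-/- replicate 2 (0.179), and that of Gabre without WT replicate 1 (0.0782), WT replicate 2 (0.243), RepB-/- replicate 1 (0.292) or RepB-/- replicate 2 (0.0569), and with DESeq2's Wald test (0.0513).

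Multicopy and germ cell families had 12 members, of which 3 were tested for all reads. With edgeR 0 were called in RepB-/-, also at an unadjusted p under 0.05, and DESeq2 called 0. Xlr3a rose by 0.91 (SE 0.28, adjusted p = 0.0358) in RepB+/-, a call lost without WT replicate 2 (0.251), RepB-/- replicate 1 (0.0596), RepB-/- replicate 2 (0.0567) or RepB+/- replicate 1 (0.447), and with DESeq2's Wald test (0.0685). The copies are near-identical, so their counts and alleles are uncertain. Among 87 members in no list 17 were tested for all reads, of which 2 rose and 1 fell in RepB-/- and 3 rose and 1 fell in RepB+/-. The member that fell in both was 3830417A13Rik, with 58.9 and 40.0 CPM in RepB-/-, 49.5 and 40.8 in RepB+/- and 76.5 and 63.7 in WT, a fall by 0.50 (SE 0.16, adjusted p = 0.0468) and by 0.62 (SE 0.16, adjusted p = 0.0168). Its call was lost without WT replicate 1 (0.285), WT replicate 2 (0.0747) or RepB-/- replicate 2 (0.381) in RepB-/- cells and without WT replicate 1 (0.135) in RepB+/-.

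Some members had many 129 reads in WT already. The highest WT shares were those of Hmgb3, a high mobility group protein gene, Atp6ap1, an accessory subunit gene of the proton pump of vesicles, Lage3, of a complex that modifies tRNA, Pnma5 and Dkc1. Hmgb3 had 129 shares of 56.9% and 67.9% in RepB-/-, 74.0% and 93.8% in RepB+/- and 54.3% and 64.3% in WT, over 43.8 allelic reads per library on average. Atp6ap1 had 51.8% and 57.1% in RepB-/-, 69.9% and 47.8% in RepB+/- and 53.3% and 64.3% in WT, over 36 reads, and neither was called for the ratio. Pnma5, of a family derived from retrotransposons, had 47.6% and 41.5% in RepB-/-, 49.7% and 37.5% in RepB+/- and 37.5% and 31.2% in WT, and was not called. Lage3 had 69.4% and 64.9% in RepB-/-, 61.1% and 62.8% in RepB+/- and 35.9% and 73.1% in WT, so that 1 WT library lay below and 1 above all RepB libraries. Its call in RepB-/-, 1.22 (SE 0.37, adjusted p = 0.0453), turned to -0.39 (adjusted p = 1) without WT replicate 1 and was lost without RepB-/- replicate 1 (adjusted p = 1) or replicate 2 (0.266), with DESeq2's Wald test (1) and with the replicate number as a block (0.0537). Dkc1 had 46.6% and 47.1% in RepB-/-, 40.8% and 48.1% in RepB+/- and 26.0% and 38.6% in WT, and its ratio changed by 0.95 (SE 0.31, adjusted p = 0.0898) and 0.75 (SE 0.32, adjusted p = 0.489).

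At the other end, the lowest 129 shares averaged over the 4 RepB libraries were those of Xlr3b, Pls3, Mamld1, 4933407K13Rik and Fundc2. Not all were low in each library, since 4933407K13Rik had 33.3% in RepB-/- replicate 1. Pls3, which encodes the actin-bundling protein plastin 3, was the deepest of them, with 14.1% and 13.8% in RepB-/-, 14.6% and 11.8% in RepB+/- and 1.13% and 2.11% in WT. Its 4 RepB libraries lay above both WT libraries and below the RepB shares of the other members with at least 1000 allelic reads. The ratio rose by 3.36 (SE 0.31, adjusted p = 4.07e-24) and 3.30 (SE 0.33, adjusted p = 1.43e-21), while all reads differed by 0.25 (SE 0.11, adjusted p = 0.145) and 0.14 (SE 0.11, adjusted p = 0.424). Mamld1, a gene known from male genital development, had 9.43% and 14.3% in RepB-/- and 16.9% and 14.0% in RepB+/-. In WT 0 of 63 and 0 of 32 of its allelic reads were from 129, which allows shares of up to 4.76% and 9.38%. Its mean 129 reads were 5.59-fold a floor of 3 reads over the WT group in RepB-/- and 8.22-fold that floor in RepB+/-. The floor allows for counting error in WT only. The ratio of Mamld1 was called in both genotypes with edgeR. It was not called with DESeq2's Wald test (adjusted p = 0.261 in RepB-/- and 0.155 in RepB+/-), and the edgeR calls were lost without either WT library. Xlr3b had 9.09% and 0% in RepB-/-, 12.2% and 0% in RepB+/- and 4.55% and 8.33% in WT, 4933407K13Rik 33.3% and 11.1% in RepB-/-, 15.6% and 0% in RepB+/- and 2.56% and 0% in WT, and Fundc2 17.6% and 11.1% in RepB-/- and 19.4% and 16.7% in RepB+/-, with 0 of 16 reads, a share of up to 18.8% in WT replicate 1, and 0 of 9 reads, a share of up to 33.3% in replicate 2. The zeros of Xlr3b stand for 0 of 18 reads, a share of up to 16.7% in RepB-/-, and 0 of 14 reads, a share of up to 21.4% in RepB+/-, and those of 4933407K13Rik for 0 of 15 reads, a share of up to 20.0% in RepB+/-, and 0 of 30 reads, a share of up to 10.0% in WT. Slc10a3, also with 0 129 reads in WT, was high instead, with 62.5% and 52.6% in RepB-/- and 69.2% and 88.9% in RepB+/-. Its WT libraries had 8 allelic reads each, which allows shares of up to 37.5%.

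Along the window, shares in RepB cells were lower from 65 to 70 Mb than from 70 to 75 Mb. The median over 13 members from 65 to 70 Mb was 28.2% ± 1.85 in RepB-/-, 26.3% ± 2.91 in RepB+/- and 4.06% ± 0.689 in WT (SD, n = 2 each). Over 41 members from 70 to 75 Mb it was 42.1% ± 1.48 in RepB-/-, 39.5% ± 3.43 in RepB+/- and 6.86% ± 1.18 in WT. The libraries of the 2 stretches did not overlap in any genotype, and the difference was not tested further. From 60 to 65 Mb 1 member had enough allelic reads, 3830417A13Rik, with 41.8% and 37.7% in RepB-/-, 33.4% and 41.7% in RepB+/- and 6.07% and 4.58% in WT. From 75 to 80 Mb there were 2, the kinase gene Prkx and Tmem47, a membrane protein gene of cell junctions, named here by position. Prkx had 44.7% and 44.0% in RepB-/-, 43.4% and 51.4% in RepB+/- and 4.35% and 3.85% in WT, and Tmem47 had 29.8% and 31.3% in RepB-/-, 23.1% and 22.9% in RepB+/- and 1.39% and 6.74% in WT.

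Set against RepB+/-, RepB-/- cells showed 0 called members, while the allelic ratio of Xist differed between them, as given above. In all reads edgeR and DESeq2 called 0 of 78, where edgeR called 0.0858% of all genes. At an unadjusted p under 0.05 edgeR had 1003 of all 15149 genes and 4 of the 78 members. The 4 were Gabre, Pnma5, Pdzd4 and Mpp1, with log2 differences of -0.54, -0.45, -0.36 and 0.27 (SE 0.22, 0.21, 0.12 and 0.11). In the ratio both tools called 0 of 57, where edgeR called 0.302% of all genes. At an unadjusted p under 0.05 edgeR had 332 of all 11597 genes and 1 of the 57 members. This was Idh3g, with a difference of 0.42 (SE 0.20, adjusted p = 1). The median difference over members was 0.02 in all reads and 0.07 in the ratio.

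In MEF most members showed almost no 129 reads in either library. These libraries have no replicates, so no test was made, and intervals are exact 95% Clopper-Pearson intervals that cover counting error only. Over 36 members with at least 20 allelic reads in both libraries the median 129 share was 0.331% in RepB and 0% in WT, and of all their allelic reads 2.23% and 1.83% were from 129. For 171 other X-linked genes the medians were 0.438% in RepB and 0.276% in WT, and for 328 genes of chromosome 13 they were 50.6% and 51.0%. For 0 of the 36 members did the 2 intervals lie apart, which was not counted over other genes. Bgn had 124 of 10611 allelic reads from 129 in RepB and 69 of 7071 in WT, or 1.17% in RepB (interval 0.973% to 1.39%) and 0.976% in WT (interval 0.760% to 1.23%), where its share was over 25% in each RepB library of ES cells. Hcfc1 had 7 of 974 in RepB and 9 of 934 in WT, and Pls3 1 of 372 in RepB and 0 of 340 in WT, where the count of 0 allows up to 0.882%.

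**Figure D4:**
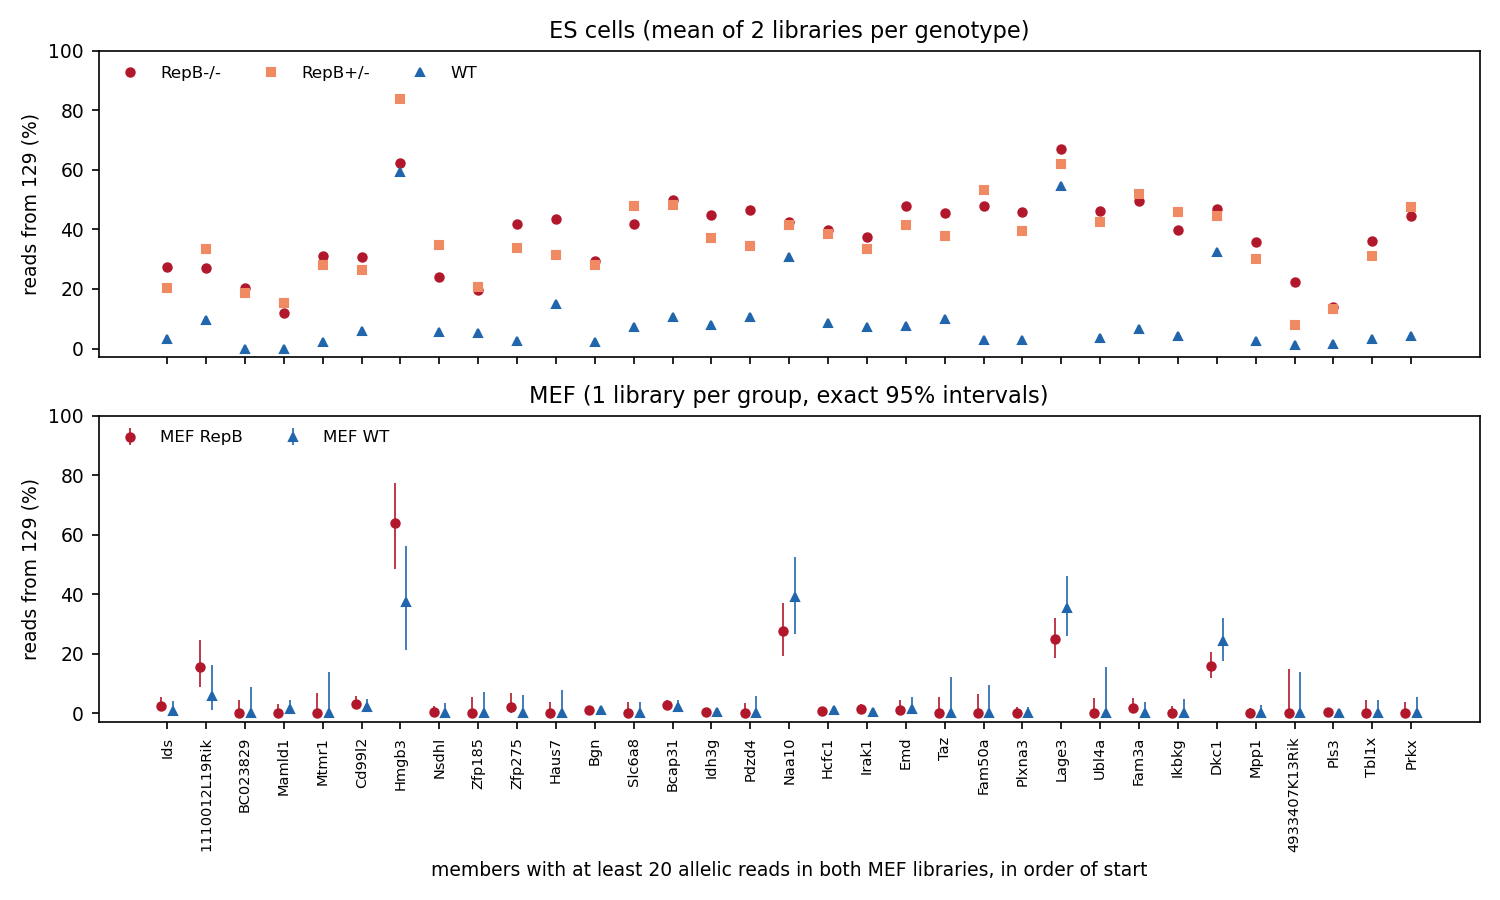
Share of 129 reads (vertical axes, percent) of 33 of the 36 members measured in MEF, in order of start (horizontal axis), in ES cells (top, means of 2 libraries of RepB-/-, RepB+/- and WT) and in MEF (bottom, RepB and WT, with exact 95% intervals). MEF shares lie near 0 in both libraries except for 5 members over 5%, while the shares of RepB ES cells lie mostly between 20% and 50%.

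In MEF 6 of 36 members had over 5% from 129 in both libraries, among them Hmgb3, Lage3, Naa10, Dkc1 and 1110012L19Rik. How many other X-linked genes passed 5% was not counted, so the 6 are not set against the rest of the chromosome. Naa10, an N-terminal acetyltransferase gene, and 1110012L19Rik were named after their values were seen. Hmgb3 had 63.8% in RepB (interval 48.5% to 77.3%) and 37.5% in WT (interval 21.1% to 56.3%). Lage3 had 25.0% in RepB (interval 18.7% to 32.2%) and 35.5% in WT (interval 25.8% to 46.1%), and Dkc1 15.8% in RepB (interval 11.7% to 20.7%) and 24.3% in WT (interval 17.6% to 32.1%). Naa10 had 27.5% in RepB and 39.0% in WT, and 1110012L19Rik 15.4% and 5.88%. Hmgb3, Lage3 and Dkc1 were also among the 5 members with the highest share in WT ES cells. Atp6ap1, below the limit of reads, had 14 of 16 reads from 129 in RepB and 7 of 11 in WT.

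Levels of all reads in MEF were close between the libraries for most members. Of 55 members averaging at least 1 CPM, 0 were at least 2-fold higher in RepB and 5 at least 2-fold lower, where 3.33% and 6.47% of 11680 genes were. The median log2 ratio of RepB over WT was -0.01, beside 0.03 over all genes and -0.03 over 308 other X-linked genes. The 5 lower members were Tmem47, Renbp, L1cam, a neural adhesion gene, Mamld1 and Gabre. Tmem47 had 1 read (0.0513 CPM) in RepB against 149 (12.9 CPM) in WT, a ratio of 0.00399 (interval 0.000100 to 0.0226). Renbp had 4 reads in RepB against 65 in WT, a ratio of 0.0366 (interval 0.00968 to 0.0983). Both genes thus had few reads in RepB, and each ratio sets 1 library against 1. Mamld1 had 15.4 CPM in RepB against 40.4 in WT, L1cam 3.49 against 9.66, and Gabre 0.821 against 1.90. The highest ratios of RepB over WT were 1.96 (interval 1.52 to 2.55) for Vbp1, a prefoldin subunit gene, 1.95 (interval 1.46 to 2.63) for Vma21, an assembly factor of the vesicle proton pump, and 1.77 (interval 1.48 to 2.11) for Fundc2. Cetn2, a centrin gene, had 1.74 (interval 1.41 to 2.14), and Brcc3 1.51 (interval 1.19 to 1.94).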

How the data were processed

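Poly(A) RNA-seq of 8 mouse samples was used, 6 of differentiated ES cells and 2 of MEF, and the other 42 of the 50 samples were not analysed here. The authors' deposited tables hold whole-number counts per gene of all reads, 129 reads and CAST reads, not normalized, in the layout of featureCounts with mm9 positions, per the file headers. Columns ending in mus and cas were read as 129 and CAST, from the strains the labels give. Per the submitters' processing notes the series used Novoalign, TopHat, SAMtools, bedtools, cutadapt, featureCounts, HOMER and Juicer. Their versions and roles, the strand setting and the treatment of reads with several matches are not given in the sources used here, so genes with near-identical copies or overlapping genes are uncertain, and reads of the allele unlike the reference may map less well.

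Counts of the 6 ES libraries were fitted over all genes with edgeR 4.0.16 (R 4.3.3), by the quasi-likelihood test with Benjamini-Hochberg adjustment at 0.05. Genotype was the only term for all reads, 129 reads and CAST reads, and the ratio was the allele-by-genotype term with the library as a block. All reads used filterByExpr (minimum count 10, minimum total 15) and TMM scaling, with a biological coefficient of variation of 9.49%. Allelic fits took genes with a mean of 20 or more allelic reads, and every adjusted p in the text comes from these edgeR fits unless DESeq2 (1.42.0) is named. Fits were tested on simulated counts. Values for MEF are TMM-scaled CPM, with log2 ratios after a prior count of 2 and exact ratio intervals for counting error. The counts of the libraries of a genotype differed beyond sampling noise (chi-square per degree of freedom 6.87 to 15.66), so none was taken as deposited more than once.

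The members, role lists, marker lists and tests were chosen with earlier results of these data known. Named members are the 4 of each role list with most allelic reads, those on 2 or more lists, the 5 with the highest 129 share in WT, the 5 highest and 5 lowest in RepB, the 5 with the lowest adjusted p of all reads in each direction, the 5 highest and 5 lowest MEF ratios, up to 10 with MEF share intervals apart and any called between RepB-/- and RepB+/-. Others named were chosen after their values were seen. Alternatives were the replicate number as a block, DESeq2 size factors and Wald test, other filters, TMM over autosomal genes, and leaving out each library. Results of some genes that these rules would name are not reported here, although the counts over members include them.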

Additional observations from a re-analysis of the deposited data

Results flagged for a closer look

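Of 25 members reported here that rose in all reads in both RepB genotypes of ES cells and averaged at least 1 CPM in MEF, 7 had a MEF ratio of RepB over WT whose exact interval lay wholly below 1. Their log2 ratios in MEF were -4.103 for Renbp, -1.38 for Mamld1, -0.7542 for Plxna3, -0.4509 for Dnase1l1, -0.355 for Zfp275, -0.2693 for Bgn and -0.1548 for Pdzd4. They stand here because the direction in MEF was opposite to that in ES cells. Several of the ES calls depended on single libraries. In RepB+/- the call of Plxna3 (adjusted p = 0.0484 in edgeR) was lost on leaving out each of the 6 libraries in turn, with an adjusted p of up to 0.323, and with DESeq2's size factors (0.0581) and Wald test (0.0876). That of Dnase1l1 (0.0443) was lost without 5 of the 6 and with the Wald test (0.0922). In RepB-/- both were lost without 3 of the 6, and Mamld1 was lost without 3 of the 6 in each genotype. Zfp275 was lost without 1 library in RepB-/- and 3 in RepB+/-, and Renbp without 1 and 2. The calls of Bgn and Pdzd4 held in both genotypes without each library in turn. Others of the 25 had MEF intervals wholly above 1, among them Fundc2 (1.48 to 2.11), Brcc3 (1.19 to 1.94), Dkc1 (1.09 to 1.36) and Bcap31 (1.04 to 1.22). The share of all genes with an interval wholly to either side of 1 was not worked out. The difference between the cell types was not tested. With 1 MEF library per group the intervals cover counting error only, so they are narrow for deeply read genes. Zfp275, a zinc finger gene, and Dnase1l1, of the deoxyribonuclease I family, were named after their values were seen. No group of ES libraries was large enough to look for a library far from the others.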

How the results depend on the processing

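The replicate numbers of the labels were not taken to pair the libraries, since there are only 2 and the labels do not tie a number to a culture or day. The deviations of same-numbered libraries correlated at 0.07 to 0.186 over 15149 genes. With the replicate number as a block, all reads gave 41 members higher and 3 lower in RepB-/- and 37 higher and 2 lower in RepB+/-, the ratio gave 40 and 35 higher, and CAST reads gave 5 lower in RepB+/-, against 3 without the block.

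Without a filter on low counts 2 members were lower in all reads in RepB+/-, against 1. DESeq2's Wald test called the ratio higher in 25 members in RepB-/-, against 39. The median 129 share in RepB-/- was 40.1% with at least 10 allelic reads, 40.7% with at least 50, 40.5% without multicopy families and 37.2% with reads pooled over members, against 40.0% with an SD of 0. Pooled reads gave 35.3% in RepB+/- and 7.83% in WT, and at least 10 allelic reads 5.03% in WT. In MEF 3 members were at least 2-fold lower at a minimum of 5 CPM, against 5.

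Leaving out 1 library at a time gave these ranges. All reads were higher in 20 to 39 and lower in 0 to 3 members in RepB-/-, and higher in 14 to 37 and lower in 0 to 2 in RepB+/-. The ratio was higher in 27 to 41 and 24 to 35, and 129 reads in 34 to 49 and 36 to 48. CAST reads were higher in 0 to 1 and lower in 1 to 5 in RepB-/-, and higher in 0 to 3 and lower in 2 to 4 in RepB+/-. The median share ranged from 36.5% to 39.3% in RepB+/- and from 5.52% to 6.74% in WT. Lage3's ratio in RepB-/- reversed to -0.39 without WT replicate 1 and was 1.88 without WT replicate 2. Over 174 results of 44 named members, leaving out a library left 902 of their values on the same side of the threshold, moved 119 out of it, 18 into it and reversed 1. The cause of these changes was not tested. Of the 106 members outside the allelic fits, 85 were also too low for the test of all reads, and 21 were tested there but had too few allelic reads.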
